A study of Mus musculus with 2 samples.

Results

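The genes of the mitochondrial respiratory chain were described in induced myogenic progenitor cells (iMPCs), which are muscle progenitor-like cells made from mouse fibroblasts. The members were the 110 of 25828 features whose symbol begins with Nduf, Uqcr, Atp5 or Cox4 to Cox8, is Sdha, Sdhb, Sdhc or Sdhd, or is that of a protein-coding gene of the mitochondrial genome (mt-Nd, mt-Co, mt-Cytb, mt-Atp). Of these, 97 features were nuclear (38 named for subunits of complex I, 8 for complex I assembly factors, 4 for complex II, 8 for complex III, 21 for complex IV and 18 for complex V) and 13 mitochondrial. In kept cells, 109 of the 110 were detected in F/R/C+CP cells and 108 in F/R/C cells.

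Droplet single-cell libraries were made from 2 iMPC clones, 1 library each, and both clones carried the genotype Tg:Pax7-nGFP/C57BL6;DBA2, a green fluorescent reporter of Pax7, the transcription factor of muscle stem cells. Both had been generated without a transgene, by 4 transfections of fibroblasts with synthetic mRNA for MyoD, the transcription factor that starts the muscle programme, in iMPC medium with the interferon-binding protein B18R. For the F/R/C+CP clone, derivation and culture took place in Forskolin, RepSox and CHIR with the JAK inhibitor CP, and for the F/R/C clone in the same 3 compounds without CP. Cells were strained to remove myotubes and fibres before loading, so the muscle-like cells described here were those that passed the strainer. Clone, compound treatment and library differed together and cannot be told apart. With 1 library per group, no difference between libraries or between cell classes has a replicate check and no test was run, and the 95% intervals cover counting error only.

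The respiratory chain sits in the inner mitochondrial membrane. Complex I (NADH dehydrogenase) and complex II (succinate dehydrogenase) pass electrons to ubiquinone, complex III passes them to cytochrome c, complex IV (cytochrome c oxidase) passes them to oxygen, and complex V (ATP synthase) uses the proton gradient that complexes I, III and IV build. Core subunits of complexes I, III, IV and V are encoded by the mitochondrial genome and all other subunits, complex II included, by nuclear genes, so that each of these complexes needs transcripts from both genomes. Striated muscle replaces some nuclear subunits of complex IV by tissue forms: Cox6a2 in place of Cox6a1, Cox7a1 in place of Cox7a2 and Cox8b in place of Cox8a.

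The RefSeq sequences before the start of the pairs Cox8b and Cox8a and Cox7a1 and Cox7a2, and of Cox6a1, are shown because these muscle and general forms are compared between cell classes further on. Each run is the 250 bases before the annotated start on build GRCm38.p6, written 5′ to 3′ on the strand of the gene, and capitals mark matches of 5 motifs searched on both strands: the NRF-1 core (the 10-letter capitals in Cox6a1, whose sixth letter could be any base), CCGGAAG (an ETS core), CAGCTG and CAGGTG (E-boxes of the kind MyoD binds) and CCAAT (the CCAAT box).
Cox8b, chr7:140900447-140900696, minus strand: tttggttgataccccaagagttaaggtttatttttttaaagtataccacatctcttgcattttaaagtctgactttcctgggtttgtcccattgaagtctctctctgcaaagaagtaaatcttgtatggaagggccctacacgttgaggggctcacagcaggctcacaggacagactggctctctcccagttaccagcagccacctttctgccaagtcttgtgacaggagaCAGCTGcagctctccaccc
Cox7a1, chr7:30183921-30184170, plus strand: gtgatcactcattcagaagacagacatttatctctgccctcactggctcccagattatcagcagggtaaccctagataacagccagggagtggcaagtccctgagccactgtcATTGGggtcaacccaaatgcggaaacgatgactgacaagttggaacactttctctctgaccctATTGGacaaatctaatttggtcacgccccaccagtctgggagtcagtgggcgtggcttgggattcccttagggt
Cox8a, chr19:7217617-7217866, minus strand: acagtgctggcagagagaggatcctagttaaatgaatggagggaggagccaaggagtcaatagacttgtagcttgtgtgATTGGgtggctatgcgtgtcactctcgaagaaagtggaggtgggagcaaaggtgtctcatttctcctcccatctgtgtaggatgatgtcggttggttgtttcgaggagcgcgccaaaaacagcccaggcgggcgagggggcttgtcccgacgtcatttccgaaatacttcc
Cox7a2, chr9:79759854-79760103, minus strand: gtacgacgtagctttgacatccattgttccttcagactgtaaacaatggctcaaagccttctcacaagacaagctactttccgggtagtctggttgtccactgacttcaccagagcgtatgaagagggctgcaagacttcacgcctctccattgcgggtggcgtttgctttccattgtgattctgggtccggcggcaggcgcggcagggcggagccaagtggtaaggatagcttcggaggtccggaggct
Cox6a1, chr5:115348959-115349208, minus strand: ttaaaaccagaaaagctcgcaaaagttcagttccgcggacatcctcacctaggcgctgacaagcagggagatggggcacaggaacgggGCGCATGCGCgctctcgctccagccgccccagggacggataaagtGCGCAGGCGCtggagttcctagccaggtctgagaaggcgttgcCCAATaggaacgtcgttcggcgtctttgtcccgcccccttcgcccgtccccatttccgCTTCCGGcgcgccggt
In Cox8b the match was CAGCTG, 19 bases before the start. Cox7a1 had a CCAAT box on the other strand at 137 and at 74 bases before the start, and Cox8a had 1 at 171 bases. Cox7a2 held none of the motifs. Cox6a1 held 2 NRF-1 cores, at 162 and 117 bases, a CCAAT box at 74 bases and an ETS core at 16 bases. No run is shown for Cox6a2.

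Over the 77 nuclear member symbols with an entry, of 96, the NRF-1 core was in 14 (18.2%), against 4.23% of the 27025 genes with an entry. CCGGAAG was in 14 (18.2%), against 7.83%. CAGCTG was in 6 (7.79%), against 14.7%, CAGGTG in 14 (18.2%), against 19.4%, and CCAAT in 34 (44.2%), against 37.5%. A match is a stretch of letters and not a shown binding site.

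The 2 libraries differed in depth, and this touches every comparison between them. For F/R/C+CP, 12000 barcodes were deposited with 313078984 counts of unique molecular identifiers (UMIs), and its 10834 kept cells had a median of 21844.5 UMIs and none under 12097. For F/R/C, 5541 barcodes were deposited with 36999292 UMIs, and its 3962 kept cells had a median of 7112 UMIs and a maximum of 23465. The libraries shared 18 barcodes. A limit of 15% mitochondrial counts left out 660 and 937 otherwise passing barcodes of the F/R/C+CP and F/R/C libraries, and this limit acts on the mitochondrial members themselves. Cells were clustered and named by marker genes: 6341 Pax7-like, 2089 committed-like (Myod1, Myog and related genes) and 2031 muscle-like cells (contractile genes) in F/R/C+CP cells, and 2140, 695 and 510 such cells in F/R/C cells. F/R/C+CP also held 195 pericyte or smooth muscle-like and 59 melanocyte-like cells, and F/R/C 287 connective-like cells. The other 119 F/R/C+CP cells and 330 F/R/C cells (median 824 UMIs) stayed unnamed. Of the members, 10 (F/R/C+CP) and 14 (F/R/C) were among the 2000 variable genes used for clustering. Muscle transcripts were also counted outside the muscle-like class. The 13 muscle markers summed to 64877 CPM (counts per 1000000 counts) in muscle-like and 4841 CPM in Pax7-like cells of F/R/C+CP, and to 44080 CPM in muscle-like and 620 CPM in Pax7-like cells of F/R/C.

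The nuclear members took a larger share of the counts in F/R/C+CP cells than in F/R/C cells, and the mitochondrial members a smaller one, in each of the 3 myogenic classes. In Pax7-like cells, nuclear members made up 3.94% of counts in F/R/C+CP cells and 3.004% in F/R/C cells, a log2 ratio of 0.39. Mitochondrial members made up 4.69% in F/R/C+CP cells and 6.81% in F/R/C cells, a log2 ratio of -0.54. The same ratios were 0.32 and -0.71 in committed-like cells and 0.37 and -0.84 in muscle-like cells. Mitochondrial counts per nuclear member count were therefore 1.19 in F/R/C+CP and 2.27 in F/R/C Pax7-like cells, 1.24 and 2.52 in committed-like cells, and 1.25 and 2.88 in muscle-like cells.

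**Figure D1:**
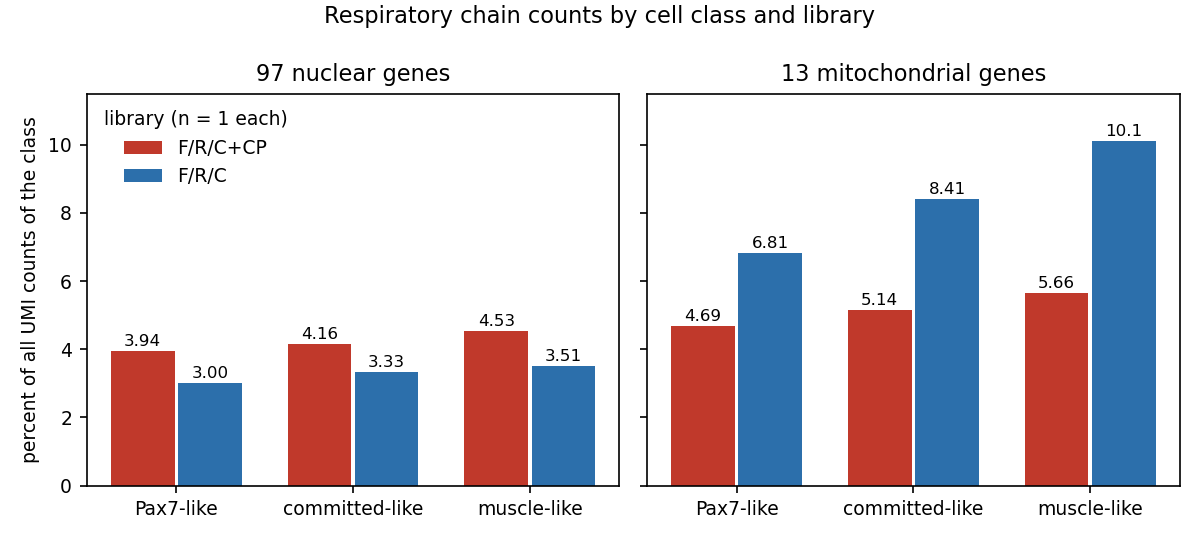
Share of all UMI counts taken by the 97 nuclear (left) and 13 mitochondrial (right) respiratory chain genes, in percent, by cell class, with 1 library per bar (F/R/C+CP red, F/R/C blue). The nuclear bars lie between 3.004% and 4.53% and are higher for F/R/C+CP in each class, whereas the mitochondrial bars reach 10.1% in F/R/C muscle-like cells.

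The difference was seen in each Pax7-like cluster. In F/R/C+CP, the 3 clusters named Pax7-like had 4.59% to 4.81% mitochondrial member counts and the 3 F/R/C ones 6.50% to 7.03%, and their nuclear shares were 3.72% to 4.09% and 3.001% to 3.008%. The clusters of 1 library share its cells and depth and are not replicates. Single cells overlapped more: the mitochondrial share had a median of 4.55% in F/R/C+CP Pax7-like cells (2.99% to 6.36% from the 10th to the 90th percentile) and of 6.74% in F/R/C Pax7-like cells (3.91% to 9.90%). The nuclear share had a median of 3.94% in F/R/C+CP cells (3.06% to 4.90%) and of 3.04% in F/R/C cells (2.26% to 3.70%).

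Among mitochondrial genes, the difference between libraries was largest for complexes IV and V. In Pax7-like cells the summed log2 ratio of F/R/C+CP cells over F/R/C cells was -0.65 for complex IV (2.003% of counts in F/R/C+CP cells and 3.15% in F/R/C cells), -0.64 for complex V, -0.38 for complex I and -0.30 for complex III, whose only mitochondrial gene is mt-Cytb. Of the 13 genes, 9 were lower in F/R/C+CP Pax7-like cells. The lowest was mt-Co3, a core subunit of complex IV, with 6919 CPM in F/R/C+CP cells and 12655 CPM in F/R/C cells (log2 ratio -0.87, interval -0.88 to -0.86). It was followed by mt-Nd1 (-0.81), mt-Co2 (-0.80), mt-Atp6 (-0.70), mt-Nd3 (-0.57), mt-Nd2 (-0.54), mt-Cytb (-0.30), mt-Nd4 (-0.26) and mt-Co1 (-0.11). The other 4 were higher: mt-Nd4l (2.01), mt-Atp8 (1.86), mt-Nd5 (0.80) and mt-Nd6 (0.32), the last being the only one encoded on the opposite strand.

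Both genes past 2-fold, mt-Nd4l and mt-Atp8, overlap a neighbour on the same transcript, mt-Nd4 and mt-Atp6, so the assignment of reads within each pair is uncertain. In Pax7-like cells mt-Nd4l had 898 CPM in F/R/C+CP and 223 CPM in F/R/C. Of the counts of mt-Nd4l and mt-Nd4 together, mt-Nd4l took 21.99% in F/R/C+CP and 5.53% in F/R/C Pax7-like cells, 21.9% and 5.59% in committed-like cells, and 23.0% and 4.89% in muscle-like cells. This split was nearly the same in all 3 classes of a library and differed between the libraries. The pair of mt-Atp8 and mt-Atp6 differed between the libraries in the same direction, with mt-Atp8 at 4.82% in F/R/C+CP and 0.852% in F/R/C Pax7-like cells, and 3.10% and 0.703% in muscle-like cells. In muscle-like cells mt-Co3 (-1.20), mt-Nd1 (-1.06) and mt-Atp6 (-1.004) were past 2-fold lower in F/R/C+CP cells, and mt-Nd4l (1.97) and mt-Atp8 (1.17) past 2-fold higher.

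The nuclear members were spread around a positive median between the libraries. In Pax7-like cells 85 nuclear members had a mean of both sums of 20 CPM or more. Of these, 67 were higher in F/R/C+CP cells, with a median log2 ratio of 0.32, against a median of -0.14 over the 6170 features at this level, of which 38.5% were higher. Past 2-fold, 14 nuclear and 2 mitochondrial members were higher, where 3.78% of all features were, and 1 nuclear member was lower, where 7.15% of all features were. In committed-like cells 63 of 85 nuclear members were higher, with a median of 0.26, against -0.10 over all features. There, 11 nuclear and 2 mitochondrial members were past 2-fold higher (3.06% of all features), namely Ndufa1 (1.54), Ndufa3 (1.49), Ndufc1, Ndufa2, Cox6a2 (1.504), Cox6c, Cox7b, Atp5e, Atp5k, Atp5md, Atp5mpl, mt-Nd4l (1.78) and mt-Atp8 (1.64), and 1 mitochondrial member, mt-Co3 (-1.04), was past 2-fold lower (5.29% of all features). Cox6a2 was also counted in melanocyte-like and pericyte or smooth muscle-like F/R/C+CP cells, as given further on. The part of that level in its committed-like ratio was not tested. In muscle-like cells 70 of 85 nuclear members were higher, with a median of 0.37, against 0.02. Past 2-fold, 10 nuclear and 2 mitochondrial members were higher (3.9% of all features) and 3 mitochondrial members lower (4.19%).

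**Figure D2:**
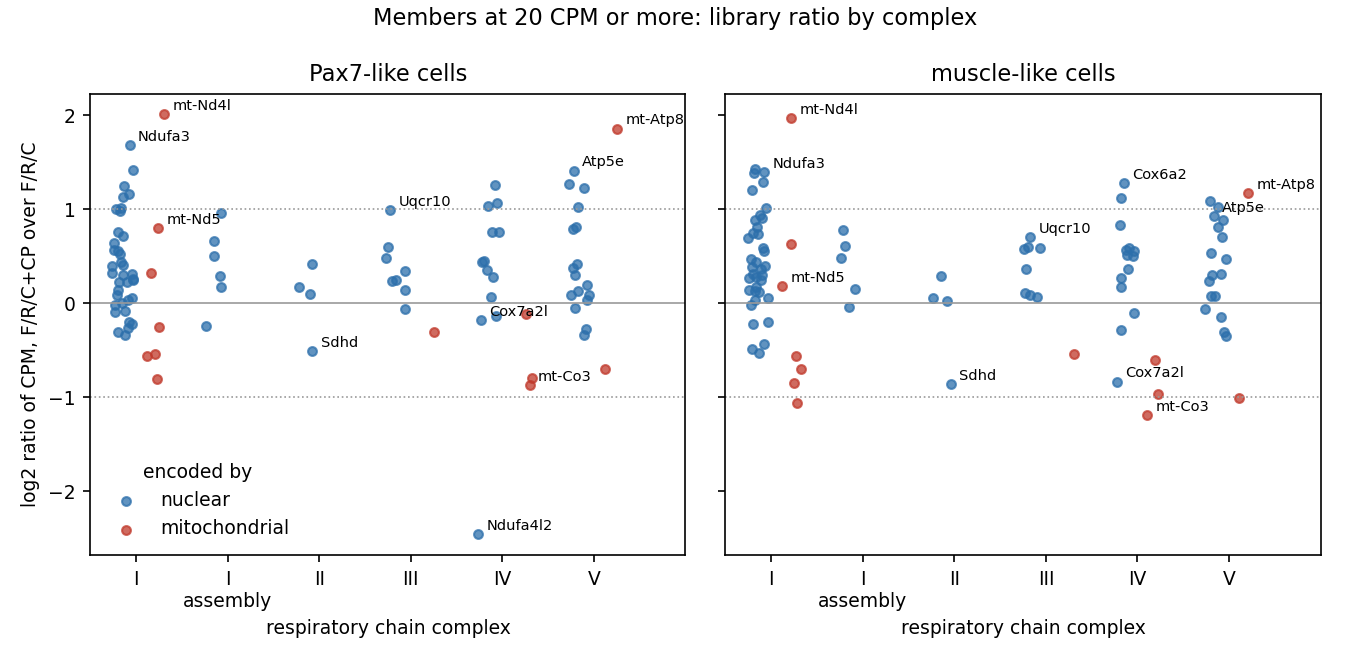
Log2 ratio of CPM, F/R/C+CP cells over F/R/C cells, for respiratory chain genes at 20 CPM or more, by complex, in Pax7-like (left) and muscle-like cells (right). Each point is 1 gene (blue nuclear, red mitochondrial) and dotted lines mark 2-fold. In Pax7-like cells mt-Nd4l (2.01) and mt-Atp8 (1.86) are at the top and Ndufa4l2 (-2.46) at the bottom.

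In complex I, the nuclear genes past 2-fold higher in F/R/C+CP Pax7-like cells were all for small accessory subunits: Ndufa3 (1.68), Ndufc1 (1.42), Ndufa6 (1.25), Ndufb1 (1.16), Ndufa1 (1.13), Ndufa2 (1.02) and Ndufb4 (1.001). Ndufa3 had 174 CPM in F/R/C+CP cells and 54.5 CPM in F/R/C cells (interval of the log2 ratio 1.58 to 1.78), and Ndufc1 had 452 CPM in F/R/C+CP cells and 169 CPM in F/R/C cells. Among subunits of the hydrophilic arm, which holds the flavin and the iron-sulphur clusters, Ndufv1, the flavin-binding subunit, was the lowest of the complex (-0.33). Ndufv2 (-0.22), Ndufs8 (-0.20), Ndufs3 (-0.10) and Ndufs7 (-0.08) were also lower, and Ndufs1 (0.41) was higher. In muscle-like cells Ndufa1 (1.42), Ndufa3 (1.39), Ndufa5 (1.39), Ndufc1 (1.29), Ndufa9 (1.20) and Ndufa13 (1.02) were past 2-fold, and Ndufs8 was the lowest (-0.53). Ndufa9, a subunit at the junction of the arms, was past 2-fold only in muscle-like cells (0.30 in Pax7-like and 0.26 in committed-like cells), where it had 167 CPM in F/R/C+CP cells and 72.7 CPM in F/R/C cells. The assembly factors, which do not stay in the finished complex, ran from -0.24 (Ndufaf7) to 0.97 (Ndufaf8) in Pax7-like cells, and Ndufaf6 reached 1.02 in muscle-like cells, at 21.99 CPM in F/R/C+CP cells and 10.8 CPM in F/R/C cells.

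Of the nuclear sums, that of complex II differed least between the libraries. In Pax7-like cells the log2 ratio was 0.36 for complex I, 0.11 for complex II, 0.43 for complex III, 0.48 for complex IV and 0.34 for complex V. In muscle-like cells it was 0.42, -0.07, 0.39, 0.35 and 0.35 in the same order. The 4 genes of succinate dehydrogenase took 0.0544% of counts in F/R/C+CP and 0.0504% in F/R/C Pax7-like cells. Sdhb, the iron-sulphur subunit, was the highest (0.41) and Sdhd, a membrane anchor, the lowest (-0.51) in Pax7-like cells, and Sdhd had 75.6 CPM in F/R/C+CP cells and 108 CPM in F/R/C cells. In muscle-like cells Sdhd was at -0.86 and Sdhb at 0.29. In complex III, Uqcr10, a small subunit, was highest in Pax7-like (0.99) and muscle-like cells (0.70), and the core protein Uqcrc2 was lowest in Pax7-like cells (-0.06), with 181 CPM in F/R/C+CP cells and 189 CPM in F/R/C cells. No complex II or nuclear complex III gene was past 2-fold in any of the 3 classes.

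In complex IV, 3 nuclear genes at 20 CPM or more were past 2-fold higher in F/R/C+CP Pax7-like cells, Cox6c (1.26), Cox7c (1.07) and Cox7b (1.04), all for small membrane subunits. Cox6c had 1067 CPM in F/R/C+CP cells and 447 CPM in F/R/C cells. By the same level in 1 of the 2 sums, Cox6a2 was also past 2-fold, with 29.9 CPM (4050 counts) in F/R/C+CP and 1.83 CPM (29 counts) in F/R/C Pax7-like cells (4.03, interval 3.51 to 4.61). Ndufa4l2, a relative of the complex IV subunit Ndufa4 known as a gene induced by low oxygen, was the only nuclear member past 2-fold lower (-2.46, interval -2.55 to -2.37), with 20.1 CPM in F/R/C+CP cells and 111 CPM in F/R/C cells. Among Pax7-like cells of 12097 to 23465 UMIs, the depths both libraries share, its ratio was -0.56 (interval -1.08 to 0.0080, over 4391 F/R/C+CP and 57 F/R/C cells), no longer past 2-fold. In muscle-like cells it had 3.68 CPM in F/R/C+CP cells and 27.3 CPM in F/R/C cells (-2.89). The lowest of the other genes in muscle-like cells was Cox7a2l (-0.83), whose protein links complexes III and IV, with 482 CPM in F/R/C+CP cells and 860 CPM in F/R/C cells. Cox5b-ps, named as a pseudogene of Cox5b, had ratios close to those of Cox5b (0.31 and 0.45 in Pax7-like cells), and reads of this pair may not be separable.

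In complex V, the small subunits were again the highest. In Pax7-like cells Atp5e had 782 CPM in F/R/C+CP cells and 294 CPM in F/R/C cells (1.41), and Atp5mpl (1.27), Atp5k (1.23) and Atp5md (1.03) were also past 2-fold higher. Atp5b, the catalytic beta subunit, was the lowest (-0.34), with 883 CPM in F/R/C+CP cells and 1114 CPM in F/R/C cells. In muscle-like cells Atp5j2 (1.09) and Atp5mpl (1.02) were past 2-fold, and Atp5b was at -0.35. The symbol Atp5o stands for 2 features, and reads may be split between them: the larger had a ratio of 0.30 in Pax7-like cells, and the smaller had 24.02 CPM in F/R/C+CP cells and 8.19 CPM in F/R/C cells (1.55).

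The library ratio of nuclear members was higher for shorter transcripts. For each gene the transcript with the longest coding part in GENCODE M21 was taken, and among equal ones the longest transcript. By this choice 84 of the 85 nuclear members had a length. Some genes with a short coding part thus had a long transcript, such as Atp5md (2733 bases, 174 of them coding), and the ranges depend on this choice. In Pax7-like cells, 18 of the 19 nuclear members under 600 bases were higher in F/R/C+CP cells, with a median log2 ratio of 0.79. The medians were 0.34 for 600 to 900 bases (20 of 24 higher), 0.21 for 900 to 1500 bases (12 of 20) and 0.18 for 1500 bases or more (16 of 21). Of the members with a length, 7 of 19, 2 of 24, 3 of 20 and 1 of 21 were past 2-fold higher in these ranges. Among other genes in the same ranges, 17.4%, 6.99%, 4.14% and 3.04% were. In muscle-like cells the medians also ran downwards, with 0.59, 0.39, 0.29 and 0.26, but the genes past 2-fold did not gather among the short ones (2 of 20, 4 of 25, 4 of 19 and 0 of 20). There, 9.21%, 6.25%, 5.55% and 3.13% of other genes were past 2-fold higher. Across the 84 genes in Pax7-like cells, which share libraries and depth and are not independent, Spearman's rho of the ratio was -0.40 with transcript length and -0.64 with coding length. The 86 other genes under 600 bases had a median of 0.57 (72 higher), and other genes of 1500 bases or more a median of -0.18. Within a length range the nuclear members thus had medians above those of the other genes, with 0.79 against 0.57 for the shortest and 0.18 against -0.18 for the longest. The 13 mitochondrial genes followed this order only in part. The shortest, mt-Atp8 (204 bases) and mt-Nd4l (297 bases), had the highest ratios, though both overlap a neighbour. Also higher was mt-Nd6 (519 bases), and all genes longer than it except mt-Nd5 were lower. Against the order, mt-Nd3, at 348 bases, was at -0.57 and mt-Nd5, at 1824 bases, at 0.80. The part of transcript length in the difference between libraries was not tested.

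**Figure D3:**
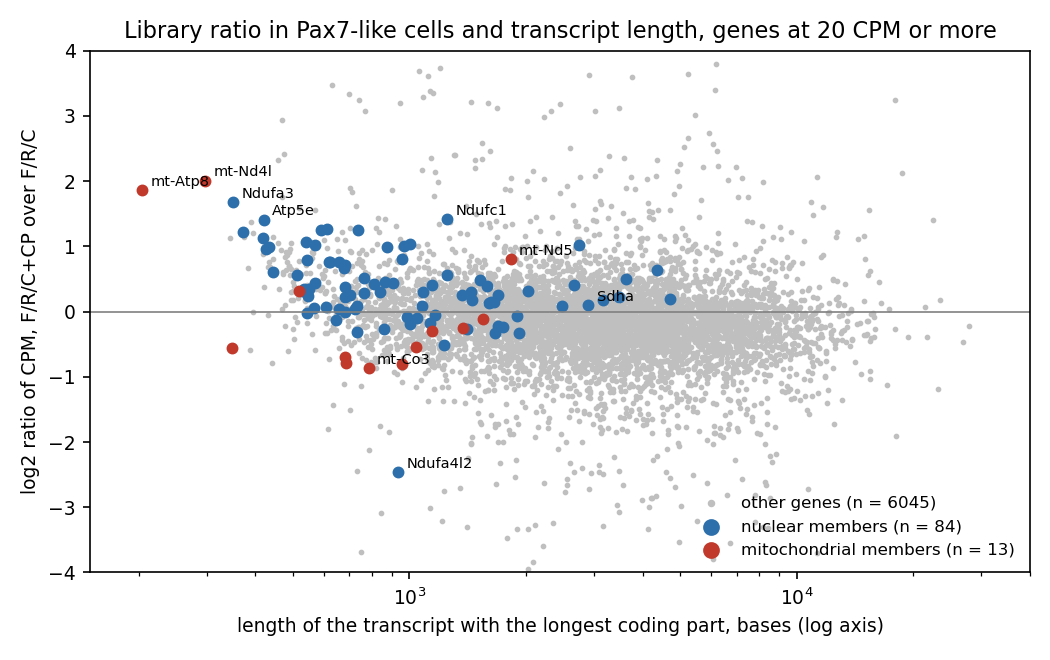
Log2 ratio of CPM, F/R/C+CP cells over F/R/C cells, in Pax7-like cells against transcript length in bases (log axis), for nuclear members (blue, 84), mitochondrial members (red, 13) and other genes (grey, 6045) at 20 CPM or more, with 29 genes outside the axes. The shortest blue points lie highest (median 0.79 under 600 bases), and Ndufa4l2 lies lowest of the members.

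Summed over each class of a library, muscle-like cells had larger shares of respiratory chain counts from both genomes than Pax7-like cells. The difference was larger for the mitochondrial genes of F/R/C cells. Along the order Pax7-like, committed-like and muscle-like, nuclear members took 3.94%, 4.16% and 4.53% of F/R/C+CP counts and 3.004%, 3.33% and 3.51% of F/R/C counts. Mitochondrial members took 4.69%, 5.14% and 5.66% of F/R/C+CP counts and 6.81%, 8.41% and 10.1% of F/R/C counts. The log2 ratio of muscle-like over Pax7-like cells was 0.20 (nuclear) and 0.27 (mitochondrial) in F/R/C+CP cells, and 0.22 and 0.57 in F/R/C cells. The nuclear difference was not seen in every muscle-like cluster. Single cells of F/R/C+CP cluster 5 (718 cells) had a median nuclear share of 3.81%, against 3.94% in Pax7-like cells. Clusters 3 and 9 had medians of 4.58% and 4.88%. In F/R/C, cluster 4 had a median of 3.34% and cluster 7 of 5.73%, against 3.04% in Pax7-like and 3.32% in committed-like cells. By complex, the mitochondrial ratios in the F/R/C+CP and F/R/C libraries were 0.25 and 0.53 for complex I, 0.48 and 0.71 for complex III, 0.26 and 0.58 for complex IV, and 0.18 and 0.50 for complex V. The nuclear ratios were 0.29 and 0.24 for complex I, 0.22 and 0.27 for complex III, 0.14 and 0.27 for complex IV, and 0.20 and 0.18 for complex V, all above 0, while complex II (-0.18 and -0.00) and the complex I assembly factors (-0.36 and -0.25) were not above 0 in either library.

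The limit on mitochondrial counts and the depth of the cells bear on these values. Without the limit, the F/R/C muscle-like class held 987 cells in place of 510, and its mitochondrial log2 ratio over Pax7-like cells was 1.06. The median over nuclear members with at least 10 counts, 0.16 in F/R/C cells with the limit, was 0.067 without it. Among cells of 12097 to 23465 UMIs, the range both libraries share, the nuclear medians were 0.023 in F/R/C+CP cells (0.20 over all cells) and 0.072 in F/R/C cells, a value over 85 muscle-like and 57 Pax7-like cells. Scaling by the median ratio of genes moved every ratio of muscle-like over Pax7-like cells up by 1 amount per library, so that the mitochondrial ratio was 0.38 in F/R/C+CP cells and 0.80 in F/R/C cells, and that of F/R/C complex II lay above 0. Muscle-like clusters of a library also differed. F/R/C cluster 4 (423 cells, median 9159 UMIs) had 3.15 mitochondrial counts per nuclear member count, and cluster 7 (87 cells, median 2013 UMIs) had 0.133, with 0.743% mitochondrial and 5.59% nuclear member counts. The F/R/C+CP values were 1.19 in cluster 3 (1233 cells), 1.53 in cluster 5 (718 cells) and 0.398 in cluster 9 (80 cells, median 16256 UMIs). The low clusters were the shallowest muscle-like clusters of their libraries, and the part of depth in these values was not tested.

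Gene by gene, 87 nuclear members had 20 CPM or more in the sums of both libraries. Of these, 53 (60.9%) were higher in muscle-like than in Pax7-like cells in both libraries, 17 lower in both and 17 in opposite directions, where 27.1% of all 5253 features were higher in both. Of the 13 mitochondrial genes, 9 were higher in both, 1 (mt-Nd6, -0.68 in F/R/C+CP and -0.98 in F/R/C) lower in both and 3 opposite. The median over all features was -0.35 in F/R/C+CP cells and -0.52 in F/R/C cells, against 0.21 and 0.18 over the 88 nuclear members measured in each. Past 2-fold, 4 nuclear members were higher (12.8% of all features) and 1 lower (25.2%) in F/R/C+CP cells, and 3 were higher (10.8%) and 2 lower (30.5%) in F/R/C cells. These shares of members were under those of all features in each direction, and most members lay within 2-fold.

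**Figure D4:**
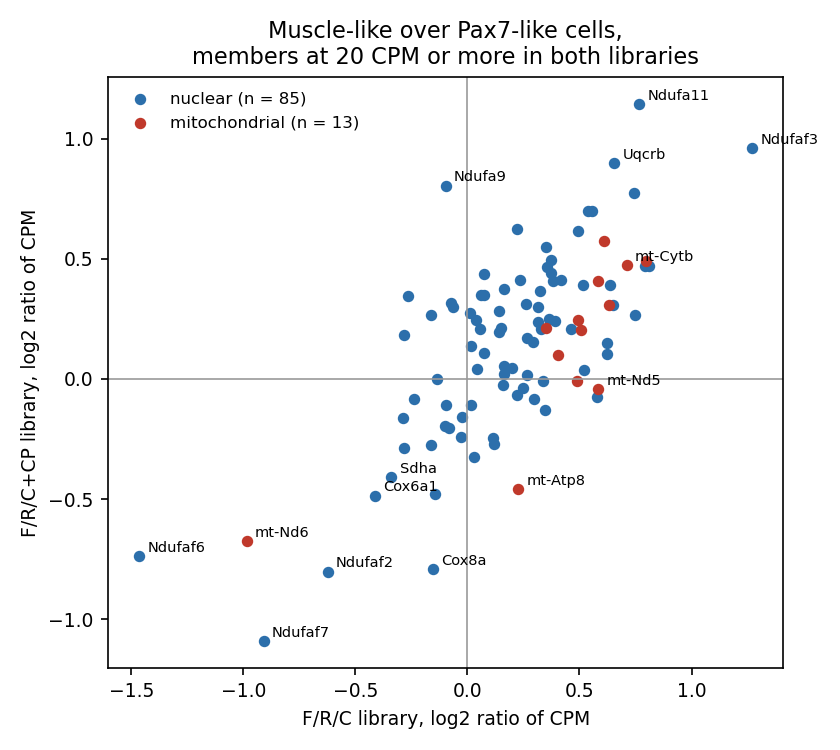
Log2 ratio of CPM, muscle-like over Pax7-like cells, in F/R/C+CP cells (y axis) and F/R/C cells (x axis), for 85 nuclear (blue) and 13 mitochondrial genes (red) at 20 CPM or more in both. Cox6a2 and Cox8b lie outside the axes, Ndufa11 is highest in F/R/C+CP (1.15), and Ndufaf7 and Ndufaf6 lie at the lower left.

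The genes past 2-fold higher in both libraries were the muscle forms Cox6a2 and Cox8b. Cox7a1 (1.27) and Ndufa11 (1.15), an accessory subunit of the complex I membrane arm, were past it in F/R/C+CP cells, where Ndufa11 had 432 CPM in muscle-like and 195 CPM in Pax7-like cells. The F/R/C ratio of Ndufa11 was 0.76, and that of Cox7a1 was 1.696, at a mean under 20 CPM. The assembly factor Ndufaf3 was past 2-fold in F/R/C cells (1.27, with 38.3 CPM in muscle-like and 15.9 CPM in Pax7-like cells) and at 0.96 in F/R/C+CP cells. Lower were Ndufaf7, a methyltransferase of complex I assembly, in F/R/C+CP cells (-1.09, 14.6 CPM in muscle-like and 31.0 CPM in Pax7-like cells), and Ndufaf6 (-1.46) and Ndufa4l2 (-2.02) in F/R/C cells. In F/R/C+CP cells Ndufa4l2 was at -2.45, with 3.68 CPM in muscle-like and 20.1 CPM in Pax7-like cells, a mean under 20 CPM. At shared depths (12097 to 23465 UMIs) the F/R/C ratio of Ndufa4l2 was -0.42 (interval -1.15 to 0.32) and the F/R/C+CP ratio of Cox7a1 0.76 (0.53 to 0.99), both within 2-fold, while the F/R/C+CP ratio of Ndufa4l2 was -2.12. A difference in 1 library and not the other was not tested.

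Other subunits with the highest ratios were alike in both libraries. Uqcrb, the highest of complex III, was at 0.90 in F/R/C+CP cells (513 CPM in muscle-like and 275 CPM in Pax7-like cells) and at 0.65 in F/R/C cells, and Ndufs5 was at 0.77 and 0.74, Ndufb9 at 0.70 and 0.55, and Ndufv3 at 0.70 and 0.54. In complex V the highest were Atp5d (0.50) in F/R/C+CP cells and Atp5md (0.79) in F/R/C cells, and Atp5a1, the catalytic alpha subunit, was the lowest of single-feature genes in both (-0.29 and -0.28). Lowest in complex III was Uqcrc2 in both (-0.16 and -0.29), and Sdha, the flavin subunit of complex II, was lowest in both (-0.41 and -0.34). Ndufa9 differed, at 0.80 in F/R/C+CP cells and -0.10 in F/R/C cells. Among mitochondrial genes mt-Nd4 (0.49 and 0.80), mt-Cytb (0.48 and 0.71) and mt-Nd4l (0.57 and 0.61) had the highest ratios.

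The muscle forms of complex IV showed the clearest order of cell classes. Cox6a2 had 29.9, 70.1 and 541 CPM in F/R/C+CP Pax7-like, committed-like and muscle-like cells, and 1.83, 24.8 and 223 CPM in those classes of F/R/C. The log2 ratio of muscle-like over Pax7-like cells was 4.18 (interval 4.13 to 4.23) in F/R/C+CP cells and 6.93 (6.40 to 7.51) in F/R/C cells. Cox8b had 9.11, 17.97 and 82.0 CPM in F/R/C+CP cells and 0.756, 7.32 and 57.6 CPM in F/R/C cells, with ratios of 3.17 and 6.25. Cox7a1 was different: it had 11.9, 6.66 and 28.8 CPM in F/R/C+CP cells and 3.34, 2.50 and 10.8 CPM in F/R/C cells, lowest in committed-like cells of both, though with 53, 14 and 46 counts in F/R/C cells. Its ratio of muscle-like over Pax7-like cells was 1.27 in F/R/C+CP cells and 1.696 in F/R/C cells, and between F/R/C+CP and F/R/C muscle-like cells it was 1.41. In the same order of classes Cox6a2 rested on 4050, 3571 and 41200 counts and on 29, 139 and 946 counts.

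As a share of each pair's counts, the muscle forms differed between classes, with Cox6a2 spanning the most percentage points. Counts at the 3′ ends of 2 genes do not give the ratio of their transcripts, so the shares are compared between classes and not within a pair. Cox6a2 made up 8.68%, 19.1% and 70.7% of Cox6a2 and Cox6a1 counts in Pax7-like, committed-like and muscle-like F/R/C+CP cells, and 0.779%, 9.91% and 56.0% in F/R/C cells. Cox8b made up 0.546%, 1.07% and 7.87% of its pair in F/R/C+CP cells, and 0.058%, 0.514% and 4.70% in F/R/C cells. Cox7a1 made up 1.44%, 0.727% and 2.96% of its pair in F/R/C+CP cells and 0.687%, 0.415% and 1.60% in F/R/C cells. Together, the 3 muscle forms took 23.4% (23.3% to 23.6%) of the 3 pairs in F/R/C+CP muscle-like cells and 12.7% (12.01% to 13.3%) in F/R/C muscle-like cells. This pooled share also depends on how the counts are spread over the pairs. The Cox6a2 and Cox6a1 pair held 58297 of 211727 counts in F/R/C+CP and 1689 of 9772 in F/R/C muscle-like cells. The general forms stayed measured in muscle-like cells: Cox8a was at -0.79 in F/R/C+CP cells, with 959 CPM in muscle-like and 1659 CPM in Pax7-like cells, and at -0.15 in F/R/C cells. Cox6a1 was at -0.49 and -0.41, and Cox7a2 at 0.21 and 0.46.

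**Figure D5:**
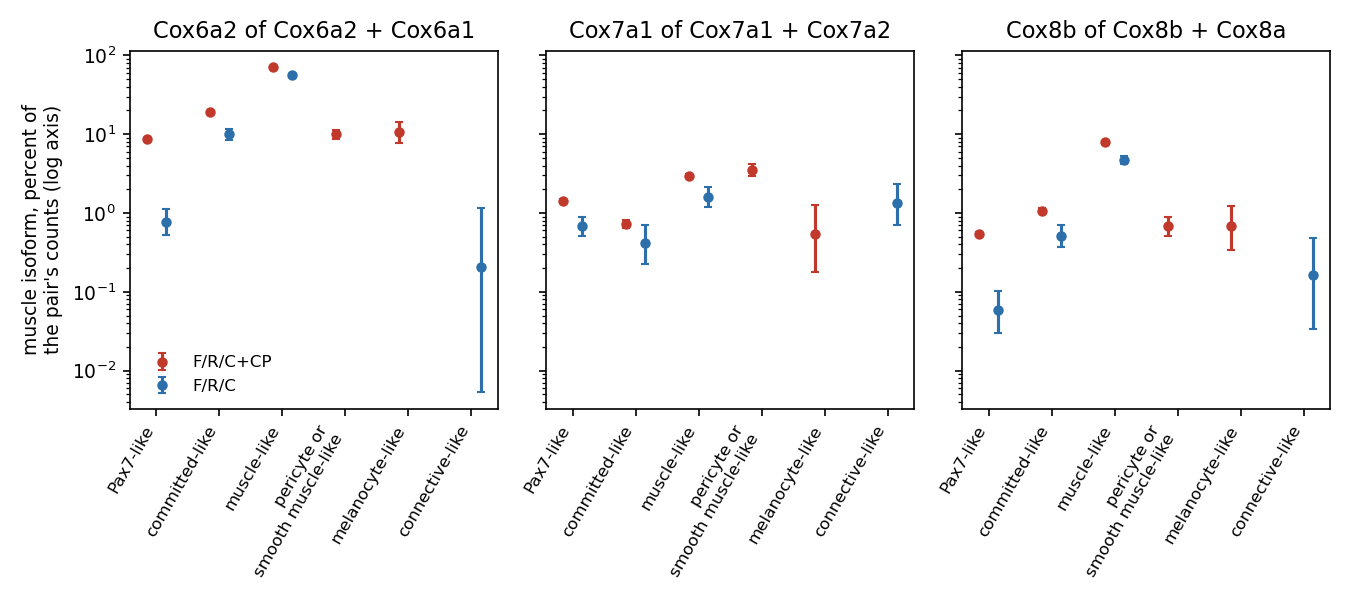
Muscle form as a percent of the counts of its pair with the general form (log axis), by class, in the F/R/C+CP (red) and F/R/C (blue) libraries, with 1 library per point and bars for the 95% exact binomial interval of counting. Cox6a2 reaches 70.7% and 56.0% in muscle-like cells, Cox7a1 reaches 2.96% there, and the pericyte and melanocyte-like points of Cox6a2 and Cox8b lie near the Pax7-like point of F/R/C+CP.

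These genes were also counted in classes other than the Pax7-like, committed-like and muscle-like ones. Among F/R/C+CP cells Cox6a2 made up 9.94% of its pair in pericyte or smooth muscle-like cells and 10.6% in melanocyte-like cells, close to the 8.68% of Pax7-like cells, and Cox8b made up 0.681%, 0.685% and 0.546% in the same classes. Cox7a1 made up 3.48% (2.92% to 4.12%) of its pair in pericyte or smooth muscle-like cells and 2.96% (2.83% to 3.08%) in muscle-like cells of F/R/C+CP, and the intervals overlapped. In F/R/C connective-like cells Cox6a2 made up 0.209% and Cox8b 0.164%, from 1 and 3 counts. After thinning each cell to 2000 UMIs, 57.5% of F/R/C+CP muscle-like cells had a Cox6a2 UMI, against 6.37% of Pax7-like and 6.78% of melanocyte-like cells. Among F/R/C cells 0.47% of Pax7-like, 3.77% of committed-like and 34.1% of the 457 muscle-like cells deep enough had one. Acta1, the skeletal muscle actin, was counted in 80.0% of Pax7-like and 76.3% of melanocyte-like thinned F/R/C+CP cells, and in 16.7% of Pax7-like and 17.9% of connective-like F/R/C cells. The Cox6a2 and Cox8b counts of F/R/C+CP Pax7-like cells were thus at the level of these classes, so no expression in Pax7-like cells is read from them or from the ratio of 4.03 between the libraries given for Cox6a2. The part of free RNA in these counts was not tested. The intervals of both genes in F/R/C Pax7-like and connective-like cells overlapped. The connective-like cells also carried Pax7, at 261 CPM. Their Pax7-like markers summed to 1131 CPM, against 1190 CPM in F/R/C Pax7-like cells, so the 2 classes are not a Pax7-negative and a Pax7-positive group. For Cox6a2, the 19.1% of committed-like F/R/C+CP cells was above that level. For Cox8b, their 1.07% (1.01% to 1.15%) was above the Pax7-like and the pericyte or smooth muscle-like shares. Its interval overlapped that of melanocyte-like cells (0.342% to 1.22%, from 11 counts). Cox8b also differed within this class, at 1.26% in cluster 2 and 0.661% in cluster 6.

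The share of the muscle forms also varied between F/R/C+CP muscle-like clusters. Cluster 3, with Acta1 at 14053 CPM, had 72.6% Cox6a2, 3.65% Cox7a1 and 9.988% Cox8b. Cluster 5, with Acta1 at 6780 CPM, had 65.7%, 0.829% and 4.31%, and cluster 9 had 65.9%, 3.62% and 6.82%. Cox7a1 and Cox8b were thus higher in cluster 3 than in cluster 5, as was Acta1. Among F/R/C cells the deep cluster 4 and the shallow cluster 7, with very different mitochondrial counts, had similar shares: 56.3% and 52.4% for Cox6a2, 1.60% and 1.62% for Cox7a1, and 4.67% and 5.17% for Cox8b.

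The other tissue forms were not highest in the muscle-like class. Cox4i2, the lung and vessel form of Cox4i1, made up 0.550%, 0.061% and 0.112% of its pair in Pax7-like, committed-like and muscle-like F/R/C+CP cells and 0.640%, 0.028% and 0.033% in F/R/C cells, against 4.91% in pericyte or smooth muscle-like and 2.33% in connective-like cells. Cox6b2, known as a testis form of Cox6b1, made up 0.957%, 0.340% and 0.226% in F/R/C+CP cells and 1.78%, 0.253% and 0.150% in F/R/C cells. In F/R/C committed-like and muscle-like cells these shares rest on 2 and 2 counts of Cox4i2 and 7 and 4 of Cox6b2. Ndufa4l2 made up 2.48%, 0.325% and 0.317% of its counts with Ndufa4 in F/R/C+CP cells and 12.8%, 1.59% and 2.76% in F/R/C cells, against 8.06% in pericyte or smooth muscle-like and 28.1% in connective-like cells. As classes, Pax7-like cells had higher shares of these 3 genes than committed-like and muscle-like cells in both libraries, but single clusters carried much of this. The F/R/C+CP Pax7-like cluster 4 had 8.50% Ndufa4l2, 1.65% Cox4i2 and 2.49% Cox6b2, where clusters 0 and 1 had 1.83% and 1.30% Ndufa4l2, 0.412% and 0.310% Cox4i2, and 0.675% and 0.695% Cox6b2. For F/R/C Cox6b2, 118 of the 139 Pax7-like counts came from cluster 3 (5.07%), and clusters 0 and 2, at 0.411% and 0.351%, had intervals that overlapped that of committed-like cells. F/R/C Ndufa4l2 was spread over the Pax7-like clusters, at 14.8%, 8.74% and 14.9% in clusters 0, 2 and 3. The 3 genes for the same c-ring subunit of ATP synthase shared its counts more evenly: Atp5g1 took 42.4%, 46.7% and 49.8% in F/R/C+CP cells and 40.2%, 44.8% and 42.5% in F/R/C cells, and Atp5g2 32.1%, 28.3% and 24.2%, and 32.9%, 28.9% and 30.2%. Cox7b2, Cox8c and Ndufb11b were at or near 0 in all classes.

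Genes around the chain, from 7 lists, were mostly within 2-fold between the libraries in Pax7-like cells, where 3.78% of all features were past 2-fold higher and 7.15% lower. Of 22 measured assembly factors of complexes II to V, 1 was past 2-fold higher (Cox17, a copper chaperone of complex IV, 1.39), and the median was 0.07. Cox16 (2.01) had 24.8 CPM in F/R/C+CP cells and 6.18 CPM in F/R/C cells, a mean under 20 CPM. None of 10 genes of cytochrome c and coenzyme Q synthesis was past it (median -0.07), nor any of 18 genes of the citric acid cycle and pyruvate dehydrogenase (0.11) or of 14 genes of fatty acid oxidation (0.20). Of 7 genes of mitochondrial DNA expression 1 was higher (Slirp, 1.11), with a median of 0.04. The 9 regulators of mitochondrial genes had a median of -0.70, with Pprc1 (-0.98), Hif1a (-0.85) and Ppard (-0.82) lowest and none past 2-fold. Glycolysis had a median of -0.61 over 16 genes, with 4 past 2-fold lower, among them Pfkl (-1.50) and Pgam1 (-1.41), and 1 higher, the muscle form Pgam2 (4.13). The 13 muscle markers also summed to 4841 CPM in F/R/C+CP and 620 CPM in F/R/C Pax7-like cells. As for Cox6a2, no expression in Pax7-like cells is read from the Pgam2 ratio. The nuclear members, at 0.32, thus had a higher median than each of these lists.

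Between muscle-like and Pax7-like cells, 12.8% of all features were past 2-fold higher and 25.2% lower in F/R/C+CP cells, and 10.8% higher and 30.5% lower in F/R/C cells. Several of the list genes past 2-fold higher were muscle forms. Of 17 glycolytic genes 5 were higher and 2 lower in F/R/C+CP cells (median 0.44), and 4 higher and 3 lower in F/R/C cells (-0.33). The muscle forms Pgam2 (3.57 and 6.30), Eno3 (3.09 and 3.67) and Pfkm (2.10 and 2.87) were highest in both. Coq8a, a kinase-like protein of coenzyme Q synthesis abundant in muscle, was at 3.15 and 4.67. Of the other assembly factors, 2 of 24 were higher and none lower in F/R/C+CP cells (median 0.05), with Cox19 (1.77) and Coa5 (1.14), and 1 of 21 was higher (Coa5, 1.01) and 1 lower (Ttc19, -1.21) in F/R/C cells (median -0.02). Of 18 citric acid cycle genes, 2 were past 2-fold lower and none higher in each library, Idh2 (-1.67 and -1.41) and Suclg2 (-1.53 and -1.84), with medians of 0.04 and -0.08. The regulators had medians of -0.33 over 5 genes and -1.02 over 9 genes, with Nrf1 (-1.83 and -1.62) and Pprc1 (-1.38 and -1.93) lower in both. Tfam, the packaging factor of mitochondrial DNA, was at -0.98 and -0.80. Fatty acid oxidation had medians of 0.03 and 0.18, with Acadl (1.73 and 1.87) highest and Echs1 (-1.25 and -1.40) lowest.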

How the data were processed

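Counts of unique molecular identifiers per gene and barcode were used as deposited. The authors made these counts with Cell Ranger 7.0.0 on GRCm39, per the submitters' processing notes, from 10x 3′ libraries with a target of 5000 cells. The study describes SoupX for F/R/C+CP, and its effect could not be seen in whole-number counts. By the study's limits, barcodes were kept with 250 to 4000 genes (F/R/C) and 250 to 7000 genes (F/R/C+CP), and up to 15% mitochondrial and 40% ribosomal protein counts. Each library was clustered in Seurat 5.3.0 (R 4.3.3) with 2000 variable genes, 30 components and resolution 0.5. Clusters were named from 12 marker lists, by a scoring set after the clusters had been seen, of which 4 versions were tried. No annotation of cells was used, and names can differ from those of the study. Scrublet (scanpy 1.11.5) called 299 F/R/C+CP and 4 F/R/C cells, so few in the F/R/C library that the caller was taken not to have worked, and no cells were removed. Removing the 1040 and 176 top-scored cells was an alternative.

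CPM are the summed counts of a class per 1000000 of its counts, and log2 ratios are given for features with at least 10 counts over both sums. Sums of 0 were replaced by a floor of 3. Counts of members past 2-fold were taken at a mean of 20 CPM or more over the 2 sums. The 95% intervals are exact binomial ones. Counts from the 3′ end were not used to rank levels between genes. The ratio step was tested on simulated data. Python 3.11.15, numpy 2.4.6, pandas 2.3.3 and scipy 1.17.1 were used, with seed 1. Promoters came from RefSeq tables (GRCm38.p6), and transcript lengths from GENCODE M21. 0 sample columns were unmapped. Members and lists were chosen with earlier results of these data known. Named with values were the mitochondrial genes, the tissue forms and their partners, members at 20 CPM or more in 1 of the 2 sums and past 2-fold, and the highest and lowest member of each complex. In the 7 other lists up to 3 genes with the largest ratio were named. Alternatives changed the limits on cells, the clustering, the scaling, the depth and the level of genes.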

Additional observations from a re-analysis of the deposited data

Results flagged for a closer look

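For 12 members at 20 CPM or more the log2 ratio of muscle-like over Pax7-like cells lay on opposite sides of 0 in the F/R/C+CP and F/R/C libraries, with both intervals for counting error clear of 0. The difference between the libraries was not tested, since each has 1 sample. Among F/R/C+CP cells the ratio was -0.08 for Ndufb3, -0.06 for Ndufa3, -0.03 for Ndufb10, -0.04 for Uqcr10, -0.27 for Atp5g2, -0.08 for Cox7a2l, -0.13 for Cox7b, -0.01 for mt-Co1, -0.46 for mt-Atp8 and -0.04 for mt-Nd5. Among F/R/C cells the same genes were at 0.30 (Ndufb3), 0.22 (Ndufa3), 0.16 (Ndufb10), 0.25 (Uqcr10), 0.12 (Atp5g2), 0.58 (Cox7a2l), 0.35 (Cox7b), 0.49 (mt-Co1), 0.23 (mt-Atp8) and 0.58 (mt-Nd5). Ndufa13 was at 0.18 in the F/R/C+CP library and -0.28 in the F/R/C library, and Uqcrc1 at 0.27 and -0.16.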

How the results depend on the processing

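No direction of a ratio among the 8 main results was reversed by any setting run. The main results that are shares of muscle forms have no direction. No paired analysis was possible because each group has 1 library. The values with no replicate spread are compared with their counting interval, so small moves count. Nuclear values here are medians over members with at least 10 counts, and mitochondrial values are ratios of sums. In the order F/R/C+CP relative to F/R/C nuclear and mitochondrial in Pax7-like cells, then muscle-like over Pax7-like nuclear and mitochondrial in F/R/C+CP and nuclear and mitochondrial in F/R/C, the log2 values were 0.31, -0.54, 0.20, 0.27, 0.16 and 0.57. They were 0.35, -0.59, 0.19, 0.29, 0.067 and 1.06 without the limit on mitochondrial counts, 0.28, -0.57, 0.21, 0.28, 0.22 and 0.62 when scaled without mitochondrial counts, 0.40, -0.45, 0.31, 0.38, 0.40 and 0.80 when scaled by the median ratio, 0.36, -0.57, 0.023, 0.37, 0.072 and 0.60 in the shared UMI range, and 0.37, -0.54, 0.15, 0.31, 0.27 and 0.50 after thinning to 2000 UMIs. With top doublet scores removed the first 5 were 0.31, -0.53, 0.20, 0.26 and 0.19. Resolution 0.3 gave 0.33, -0.53 and, for F/R/C+CP mitochondrial genes, 0.27, as did clustering without the members (0.27). At least 1000 detected genes gave 0.15 and 0.60 in F/R/C, and genes at 20 CPM or more gave 0.21 (F/R/C+CP) and 0.18 (F/R/C). The share of muscle forms, 23.4% in F/R/C+CP and 12.7% in F/R/C muscle-like cells, was 21.5% and 11.4% in the shared UMI range, 15.5% in F/R/C without the mitochondrial limit, and 24.9% (doublets removed) and 22.5% (thinned) in F/R/C+CP. The median ratio scaling and the level of genes give no other share, since a share is within a class. Of 197 alternative values of single genes 53 moved beyond their counting interval and 3 changed sign, of Cox4i2 and Cox6b2 between the libraries. In Pax7-like cells their main values were near 0, at 0.06 and -0.14. Without the limit on mitochondrial counts they were -0.56 (interval -0.83 to -0.28) and -0.65 (-0.91 to -0.38). At shared depths Ndufa4l2 was -0.56 between the libraries in Pax7-like cells (-2.46 over all cells) and -0.42 for muscle-like over Pax7-like F/R/C cells (-2.02), and Cox7a1 was 0.76 in F/R/C+CP cells (1.27). The cause of these moves was not tested. Cox7a1, Cox8b and Cox6a2 in F/R/C Pax7-like cells rest on only 53, 12 and 29 counts, which limits the precision of their ratios.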
